A study of Mus musculus with 28 samples.

Results

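The region described is the 1 Mb of mouse chromosome 8 from 123000001 to 124000000 (build mm9), described by its selection rule as holding the genes Irf8, Foxf1a, Foxc2 and Foxl1. It was chosen by 2 measured values. Of 2644 windows of 1 Mb it had the largest excess of chromatin state U3 in GS over NT in wild-type cells and the largest excess of state U4 in GS over NT in SirT7-/- cells, GS and NT being the treatments. It held 5000 of the 13274547 bins of 200 bp into which each chromatin map divides the genome. The maps came from primary mouse embryonic fibroblasts (MEFs) of strain 129s2, taken from embryos of day 14.5 and used at passages 3 to 4. There were 4 groups, each written as genotype and treatment: SirT7-/- cells under GS (KO-GS), SirT7-/- cells under NT (KO-NT), wild-type cells under GS (WT-GS) and wild-type cells under NT (WT-NT). The labels expand neither treatment name, and the series title concerns glucose starvation. In the SirT7-/- cells the gene is missing from the embryo onward, so early and late effects of its loss cannot be told apart, and the labels do not say how many embryos gave rise to the cells.

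Each map is a segmentation into 4 states, U1 to U4, tied by the labels to 4 ChIP libraries, 2 against H3K27me3 and 2 against mH2A1. Both replicates had been pooled into 1 segmentation, so no share below has a replicate error and no difference between segmentations could be tested. The sources used here do not give the read depth, the segmentation tool, what each state stands for, or whether states were defined alike in the 4 segmentations. The states are therefore called by their names only. In the genome as a whole U1 was the most common state, at 70.1% to 73.5% of bins, and U4 the rarest, at 1.06% to 2.02%. A second kind of data, 2 lists of SIRT7 ChIP peaks, came from wild-type cells only, 1 list for GS and 1 for NT. The series holds no SIRT7 ChIP from SirT7-/- cells.

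H3K27me3 is the histone mark written by Polycomb repressive complex 2, and in fibroblasts it typically lies over long stretches around developmental regulators that these cells do not use. MacroH2A1 is a variant of histone H2A with a large additional domain, found on the inactive X chromosome and over many Polycomb-marked autosomal domains. SIRT7 is a nuclear sirtuin, an NAD-dependent deacylase. The 4 genes are of the kind that Polycomb commonly covers. Foxf1a (now Foxf1) encodes a forkhead transcription factor of lung and gut mesenchyme, Foxc2 a forkhead factor of lymphatic vessels, valves and mesenchyme, and Foxl1 a forkhead factor of the mesenchyme under the gut epithelium. Irf8 encodes an interferon regulatory factor needed for the monocyte and dendritic cell lineages.

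All 4 genes were found by name in the RefSeq gene table of build GRCm38.p6, Foxf1a through its synonym. In that table they lay in the order Irf8, Foxf1a, Foxc2, Foxl1, among 14 genes of which 5 were protein coding. Between Irf8 and Foxf1a stood 9 genes, all long non-coding RNAs, the last of them Fendrr, which neighbours Foxf1a and is known for a role in heart and body wall development. Mthfsd, the remaining protein-coding gene, stood between Foxf1a and Foxc2, and no gene stood between Foxc2 and Foxl1. Cox4i1 and Emc8 were the nearest protein-coding genes before Irf8. These orders are from another build than the segmentations, so no state below is assigned to a single gene or promoter, and the place of the genes inside the window was not checked.

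Of the 4 genes, the RefSeq promoter table of the same build held Irf8, and it also held Fendrr. They are shown because CG-rich promoters are the kind that Polycomb commonly occupies. Each runs from 250 bases before the annotated start to 50 bases after it, 5′ to 3′ on the gene's own strand, with every CG dinucleotide in capitals. The Irf8 promoter is from the plus strand (chr8:120736108-120736407, GRCm38.p6) and the Fendrr promoter from the minus strand (chr8:121083061-121083360, GRCm38.p6).
Irf8: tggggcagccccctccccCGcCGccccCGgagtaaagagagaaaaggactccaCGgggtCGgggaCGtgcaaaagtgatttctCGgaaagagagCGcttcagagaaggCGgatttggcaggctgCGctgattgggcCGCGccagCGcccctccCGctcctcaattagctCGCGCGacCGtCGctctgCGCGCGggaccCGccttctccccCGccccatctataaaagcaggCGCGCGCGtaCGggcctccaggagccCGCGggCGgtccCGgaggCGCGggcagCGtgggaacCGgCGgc
Fendrr: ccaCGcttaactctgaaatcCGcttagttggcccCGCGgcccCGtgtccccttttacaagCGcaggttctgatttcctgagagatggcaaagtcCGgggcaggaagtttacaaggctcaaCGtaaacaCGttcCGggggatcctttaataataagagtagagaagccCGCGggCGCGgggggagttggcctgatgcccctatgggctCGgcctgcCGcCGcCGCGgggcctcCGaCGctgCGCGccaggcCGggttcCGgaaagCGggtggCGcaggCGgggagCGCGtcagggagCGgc
The Irf8 promoter held 38 CG dinucleotides and was 70.0% G or C. The Fendrr promoter held 31 and was 64.7% G or C. Over 32851 promoters of 300 bases in the table the median was 7.00 CG dinucleotides, and 4.95% had as many as Irf8 and 10.6% as many as Fendrr. The table also gives a downstream Irf8 start, whose promoter held 8 CG dinucleotides, a count that 48.6% of all promoters reach. The count describes the sequence and says nothing of which state lay over it.

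The window was built from 4 blocks of marked sequence (U2, U3 or U4), set apart by stretches that were U1 in all 4 segmentations. The initial 116 kb, from 123000001 to 123115600, was U1 throughout. A first block of 45.0 kb followed, from 123115601 to 123160600. The second block ran for 416 kb from 123203201 to 123618800 and was almost entirely U3 and U4, so it is called the U3-rich block. The third block, of 296 kb, from 123633801 to 123929600, had U2 as its most common state, at 47.2% to 57.0% of bins, with U3 at both ends and most of its U4 in the distal part. The fourth began at 123936001 and ran past the end of the window to 124071400 in KO-GS and WT-NT and to 124071200 in KO-NT and WT-GS.

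**Figure D1:**
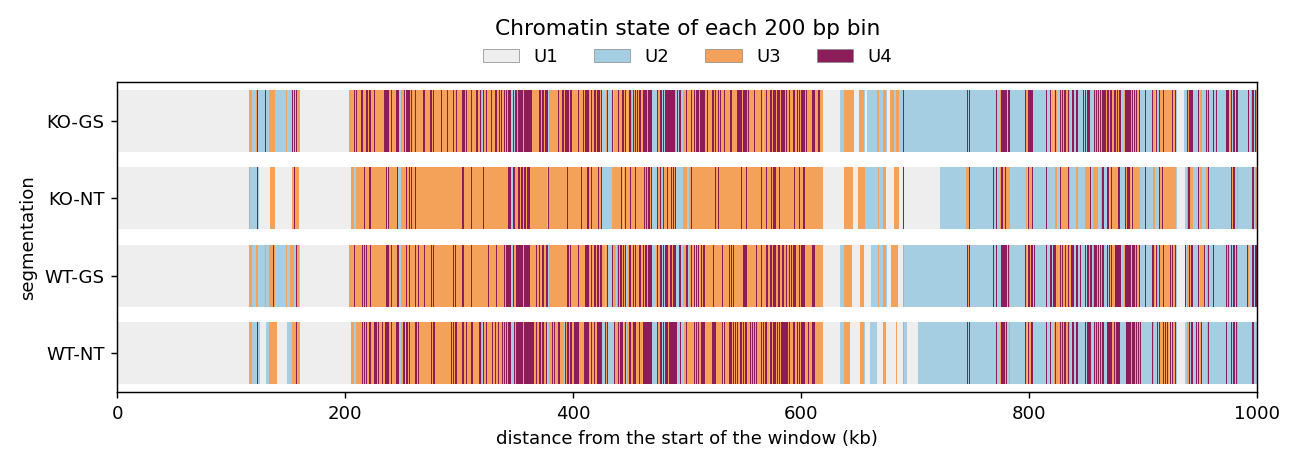
The 4 segmentations along the window, 1 row each, coloured by the state of every 200 bp bin, against the distance in kb from the start of the window. The second block (the long stretch left of the middle) is U3 and U4 in every row, and the dark U4 bins are fewest in KO-NT.

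The outer limits of the U3-rich block hardly moved between groups. It ended at 123618800 in all 4 segmentations. It started at 123203201 in KO-GS, 123204601 in KO-NT, 123203401 in WT-GS and 123205001 in WT-NT. In it U3 and U4 together filled 93.3% of bins in KO-GS, 92.0% in KO-NT, 94.2% in WT-GS and 90.4% in WT-NT. What differed was how that length was divided. U4 took 40.0% of the block in KO-GS and 12.8% in KO-NT, against 29.7% in WT-GS and 40.5% in WT-NT. U3 took 53.3% in KO-GS and 79.2% in KO-NT, against 64.4% in WT-GS and 50.0% in WT-NT.

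The first block and the third were less stable in outline. The first block was continuous in KO-GS, where none of it was U1, while in KO-NT 53.8% of it was U1 and it fell into 3 pieces. The U1 share of that block was 1.78% in WT-GS and 30.2% in WT-NT. In the third block U1 filled 2.77% in KO-GS and 16.9% in KO-NT, and 7.10% in WT-GS and 14.2% in WT-NT. The differences lay in its proximal part. In the 50 kb step that starts at 123650001, U1 covered 8.00% of bins in KO-GS and 42.4% in KO-NT, and 29.6% in WT-GS and 64.8% in WT-NT. In the next step, from 123700001, U2 covered 96.4% in KO-GS and 51.6% in KO-NT, and 95.6% in WT-GS and 93.6% in WT-NT.

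Over the whole window U4 was lowest in KO-NT. It covered 25.3% of bins in KO-GS, 8.68% in KO-NT, 20.3% in WT-GS and 24.1% in WT-NT. The KO-NT share depended on short segments, being 5.50% with bins merged into 1 kb and 2.96% with segments under 1 kb joined to the one before, and it was the lowest of the 4 under both settings. U3 was highest in KO-NT, at 29.6% in KO-GS, 43.5% in KO-NT, 35.0% in WT-GS and 26.9% in WT-NT. Their sum varied less, at 55.0%, 52.2%, 55.3% and 51.0% in the same 4 segmentations. U2 covered 26.3% in KO-GS, 22.2% in KO-NT, 24.5% in WT-GS and 25.3% in WT-NT. The window was rich in both states beside the genome, where U3 covered 8.50%, 9.04%, 8.42% and 7.88% and U4 1.87%, 1.06%, 1.64% and 2.02% in the order KO-GS, KO-NT, WT-GS, WT-NT.

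**Figure D2:**
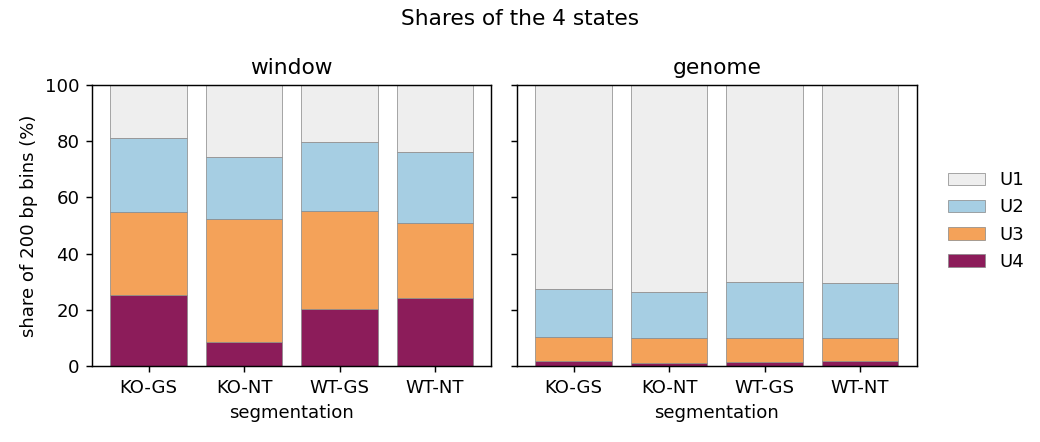
Share of 200 bp bins in each state, stacked from U4 at the bottom to U1 at the top, in the window and in the genome, with 1 bar per segmentation. In the window the U4 part is 8.68% in KO-NT and 20.3% to 25.3% in the other bars, while U3 and U4 together reach 51.0% to 55.3%.

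Between treatments U3 and U4 differed in opposite directions in the 2 genotypes. In SirT7-/- cells U4 differed by 16.7 percentage points (GS minus NT) and U3 by -13.9 points. In wild-type cells U3 differed by 8.10 points (GS minus NT) and U4 by -3.74 points. The U4 difference in SirT7-/- cells and the U3 difference in wild-type cells selected the window and are given as a description. U3 and U4 together were 2.76 points higher in GS in SirT7-/- cells and 4.36 points higher in wild-type cells. U1 was lower in GS in both, with differences of -6.80 points in SirT7-/- cells and -3.54 points in wild-type cells. U2 was 4.04 points higher in GS in SirT7-/- cells and differed by -0.82 points in wild-type cells. Over the genome U3 and U4 differed with the same signs as in the window, by fewer points. There U4 differed by 0.815 points and U3 by -0.541 points in SirT7-/- cells. In wild-type cells U3 differed by 0.540 points and U4 by -0.382 points over the genome.

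Counted in points of all bins, the differences in U4 were larger in the U3-rich block than around it. In SirT7-/- cells U4 was 27.2 points higher in GS inside the block and 9.17 points higher in the rest of the window. In wild-type cells U4 differed by -10.7 points (GS minus NT) inside the block. In the rest of the window WT-GS had 13.7% U4 and WT-NT 12.4%, so GS was 1.23 points higher there. U3 in wild-type cells was higher in GS in both parts, by 14.5 points in the block and 3.56 points outside it. U3 and U4 together filled 90.4% to 94.2% of the block and 22.9% to 27.7% of the rest. In the block U4 made up 42.9% of them in KO-GS, 13.9% in KO-NT, 31.6% in WT-GS and 44.8% in WT-NT. In the rest of the window that share was 53.8%, 24.1%, 49.3% and 54.3% in the same order. By that share the SirT7-/- difference was similar in both parts, and wild-type cells were lower in GS in both.

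Between genotypes the NT cells stood far apart and the GS cells less so. In NT the difference, SirT7-/- minus wild type, was -15.4 points for U4 and 16.6 points for U3. That U4 difference was the lowest of all 2644 windows. In GS it was 5.00 points for U4 and -5.36 points for U3. For U3 and U4 together it was -0.36 points in GS and 1.24 points in NT, and the NT value was -0.22 points when the window was widened by 500 kb on both sides. The contrast of KO-GS with KO-NT and that of KO-NT with WT-NT share the KO-NT segmentation, so the low U4 of that 1 segmentation enters both.

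Taken as a share of all U3 and U4 bins, U4 had the same order of segmentations in the window and over the genome. This share was 46.1% in KO-GS, 16.6% in KO-NT, 36.8% in WT-GS and 47.3% in WT-NT in the window, beside 18.1%, 10.5%, 16.3% and 20.4% over the genome. The window's share was 2.55, 1.58, 2.26 and 2.31 times the genome's in that order. KO-NT thus had the lowest share in the genome total as well as here, though not in the windows of chromosome X given further on, and the part of the genome-wide difference in the window's differences was not tested.

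Counted bin by bin, much of the change was an exchange of U3 and U4. Between KO-GS and KO-NT 1421 bins of the window differed in state, or 28.4%, against 11.2% of all bins in the genome. Between WT-GS and WT-NT 972 differed, or 19.4%, against 9.54% in the genome. Between KO-GS and WT-GS 815 differed, or 16.3%, against 10.1%. Between KO-NT and WT-NT 1297 differed, or 25.9%, against 11.4%. All 4 shares exceeded the genome's, but U1, which kept its state in 93.8% to 96.6% of its bins over the genome, filled only 18.8% to 25.6% of the window. Ranked among the 2644 windows the 4 shares stood 76th, 193rd, 486th and 129th from the top. Exchanges of U3 and U4 made up 55.2% of the changed bins between KO-GS and KO-NT, 50.0% between WT-GS and WT-NT, 62.2% between KO-GS and WT-GS and 60.2% between KO-NT and WT-NT. Over the genome they made up 9.39%, 10.5%, 9.46% and 10.1%. U3 and U4 together filled 51.0% to 55.3% of the window and 9.90% to 10.4% of the genome, so more of the window's bins could be exchanged. The part of the higher exchange share that goes with this content was not tested.

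In SirT7-/- cells the exchange ran almost wholly one way. Of the 2176 window bins that were U3 in KO-NT, 758 (34.8%) were U4 in KO-GS, where the genome's share was 9.34%. Only 27 of the 434 bins that were U4 in KO-NT were U3 in KO-GS (6.22%, against 19.3% over the genome). The window was chosen for its excess of U4 in KO-GS over KO-NT, so these counts describe the choice. The U4 bins already present in KO-NT were retained in 392 cases (90.3%), against 63.2% over the genome. A second change was the filling of U1: of 1279 U1 bins in KO-NT, 300 (23.5%) were U2 in KO-GS, against 4.46% over the genome. It was not particular to the window. U1 differed by -6.80 points (KO-GS minus KO-NT) in the window, -11.3 points in the Mb before it and -7.08 points in the Mb after.

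In wild-type cells the exchange went both ways, more often from U4 to U3. Of the 1204 bins that were U4 in WT-NT, 378 (31.4%) were U3 in WT-GS, close to the genome's 34.6%, and 806 (66.9%) were still U4, where the genome had 53.4%. In the other direction 108 of 1344 U3 bins (8.04%) were U4 in WT-GS, where the genome had 3.79%. Of the 1266 bins that were U2 in WT-NT, 127 (10.0%) were U3 in WT-GS and 101 (7.98%) were U4, where the genome had 4.29% and 1.19%. The share of U4 bins that were U3 in GS was thus near the genome's, in a window where WT-NT had 24.1% of bins in U4 against 2.02% over the genome.

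Between genotypes in NT, 754 of the 1204 bins that were U4 in WT-NT (62.6%) were U3 in KO-NT, beside 49.2% over the genome. Of the 1344 U3 bins of WT-NT, 27 (2.01%) were U4 in KO-NT, near the genome's 2.05%. In GS, 384 of the 1749 U3 bins of WT-GS (22.0%) were U4 in KO-GS, where the genome had 6.66%. Of its 1017 U4 bins, 123 (12.1%) were U3 in KO-GS, where the genome had 24.0%.

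The bins in which KO-GS had U4 and KO-NT had U3 were largely U4 in wild-type cells too. Of the 758 bins that were U3 in KO-NT and U4 in KO-GS, 528 (69.7%) were U4 in WT-NT, 407 (53.7%) were U4 in WT-GS, and 593 (78.2%) were U4 in at least 1 of them. Over the genome 67.2% of such bins were U4 in at least 1 wild-type segmentation. Of the 378 bins that were U4 in WT-NT and U3 in WT-GS, 344 (91.0%) were U3 in KO-NT and 209 (55.3%) were U4 in KO-GS. In 342 bins KO-NT alone was U3 and the other segmentations all U4, which is 6.84% of the window and 0.278% of the genome. The difference of KO-GS from KO-NT at these bins is part of what chose the window.

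The U4 of KO-NT was close to a subset of the U4 elsewhere. Of its 434 U4 bins, 90.3% were U4 in KO-GS, 87.8% in WT-GS and 88.9% in WT-NT, where the genome had 63.2%, 59.7% and 65.2%. In those other segmentations U4 covered 20.3% to 25.3% of the window and 1.64% to 2.02% of the genome. The part of the overlap that goes with this density was not tested. Bins that were U4 in 1 segmentation only numbered 201 in KO-GS (15.9% of its U4 bins), 13 in KO-NT (3.00%), 85 in WT-GS (8.36%) and 175 in WT-NT (14.5%). The corresponding shares over the genome were 24.0%, 20.3%, 19.4% and 26.6%. In all, 3046 bins (60.9%) had 1 state in every segmentation, 985 of them U3, 928 U1, 796 U2 and 337 U4. Over the genome 81.4% of bins had 1 state in every segmentation. Bins that were U1 in all 4 made up 64.6% of the genome and 18.6% of the window. Bins that were U3 or U4 in all 4 numbered 2373, or 47.5% of the window, beside 6.99% of the genome.

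U4 lay as short islands, most of whose borders faced U3 and nearly all others U2. There were 361 U4 segments in KO-GS, 202 in KO-NT, 302 in WT-GS and 322 in WT-NT. Their median length was 400, 200, 400 and 600 bp in the same order. Segments of a single bin made up 34.9% in KO-GS, 52.5% in KO-NT, 37.7% in WT-GS and 31.4% in WT-NT, beside 63.0%, 65.0%, 60.9% and 59.3% over the genome. About as many borders of U4 segments faced U3 in every segmentation, from 74.5% in WT-GS to 75.9% in KO-GS, where the genome had 54.2% to 58.7%. Borders with U2 made up 24.0% in KO-NT to 25.5% in WT-GS. Borders were not counted by block. In the fourth block, up to the end of the window, U2 covered 59.7% to 70.0% of bins and U3 7.50% to 17.8%. The longest U4 segment was 4200 bp in KO-GS (123460801 to 123465000), 2600 bp in KO-NT (123574801 to 123577400), 3200 bp in WT-GS (123410201 to 123413400) and 4200 bp in WT-NT (123409601 to 123413800). The longest of WT-GS lay within the longest of WT-NT.

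The larger U4 share of KO-GS came from more islands as well as longer ones. Of its 361 U4 segments, 169 (46.8%) shared a bin with U4 in KO-NT and 192 shared none. Conversely 186 of the 202 U4 segments of KO-NT (92.1%) shared a bin with U4 in KO-GS, and 170 (84.2%) lay wholly in it. Of the 302 U4 segments of WT-GS, 251 (83.1%) shared a bin with U4 in WT-NT and 174 (57.6%) lay wholly in it. Such overlaps were not counted for the U4 segments of the whole genome. U4 was denser in the window than in the genome, and the part of the overlap that goes with this was not tested. U3 segments were correspondingly longer where U4 was scarce, with a mean of 1050 bp in KO-GS, 2545 bp in KO-NT, 1470 bp in WT-GS and 1058 bp in WT-NT. The longest U3 segment was 8400 bp in KO-GS, 18000 bp in KO-NT (123506201 to 123524200), 12600 bp in WT-GS and 6600 bp in WT-NT.

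The difference in U4 ran along the whole marked length. Of 20 steps of 50 kb, 14 had U3 and U4 in at least 20% of bins in all 4 segmentations. KO-GS was above KO-NT for U4 in 14 of them, by a median of 21.8 points (8.00 to 35.2), and below it for U3 in 14. KO-NT was below WT-NT for U4 in 14 of them. In wild-type cells GS was above NT for U3 in 12 and below NT for U4 in 10, with U4 differences of -14.4 to 9.60 points. Neighbouring steps lie in the same blocks and are not independent of each other. The excesses in GS of U4 in SirT7-/- cells and of U3 in wild-type cells chose the window. The step counts for these values therefore describe where the excess lay and support nothing further.

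**Figure D3:**
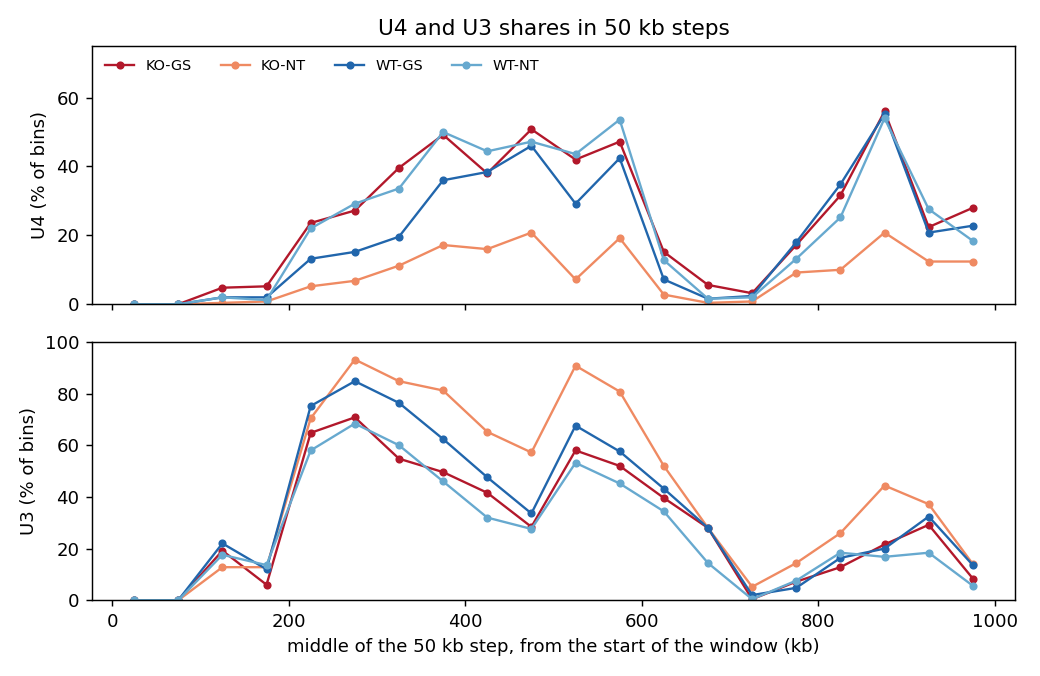
Share of bins in U4 (upper panel) and in U3 (lower panel) in consecutive 50 kb steps, against the middle of the step in kb from the start of the window, with 1 line per segmentation. The KO-NT line is the lowest for U4 in each step with 20% or more U3 and U4, and U4 peaks near 875 kb at 54.0% to 56.0% in the other 3.

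Taken by whole blocks and as a share of all bins, wild-type cells had less U4 in GS than in NT in the U3-rich block only. In the third block U4 covered 21.4% of bins in KO-GS and 8.25% in KO-NT, and 21.0% in WT-GS and 19.2% in WT-NT. In the fourth, up to the end of the window, it covered 29.4% in KO-GS and 13.4% in KO-NT, and 24.4% in WT-GS and 22.2% in WT-NT. In the first block it covered 11.1% in KO-GS and 1.33% in KO-NT, and 4.44% in WT-GS and 3.56% in WT-NT. Single steps varied within the blocks. The step from 123450001, in the U3-rich block, had 46.0% U4 in WT-GS and 47.2% in WT-NT, and the step from 123800001, in the third block, had 34.8% in WT-GS and 25.2% in WT-NT.

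In points of all bins, the Mb on either side of the window had smaller differences of the same sign. U4 in SirT7-/- cells was 6.74 points higher in GS in the Mb before the window and 7.52 points higher in the Mb after it. U3 in wild-type cells was 3.32 points higher in GS in the Mb before and 2.88 points higher in the Mb after. Over the genome the corresponding differences were 0.815 and 0.540 points. U3 and U4 together filled 22.6% to 29.3% of bins on either side, against 51.0% to 55.3% of the window. As a share of those bins, U4 was 41.4% in KO-GS and 19.6% in KO-NT in the Mb before. It was 42.1% and 12.3% in the Mb after, beside 46.1% and 16.6% in the window. By that share the SirT7-/- difference in the Mb after was similar to the window's.

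The windows ranked next by the rule show where its threshold lay. The next largest excess of U3 in GS in wild-type cells was 7.50 points, on chromosome 15 from 78000001 to 79000000, where U3 covered 37.5% in WT-GS and 30.0% in WT-NT. It was followed by 7.20 points on chromosome 12 from 111000001 and on chromosome 7 from 143000001. The next largest excess of U4 in GS in SirT7-/- cells was 12.0 points, on chromosome X from 11000001, where U4 covered 30.6% in KO-GS and 18.6% in KO-NT. It was followed by 12.0 points on chromosome 4 from 136000001 and 11.8 points on chromosome 5 from 112000001. The window was chosen as the highest on both measures, so these values describe the choice and support nothing.

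**Figure D4:**
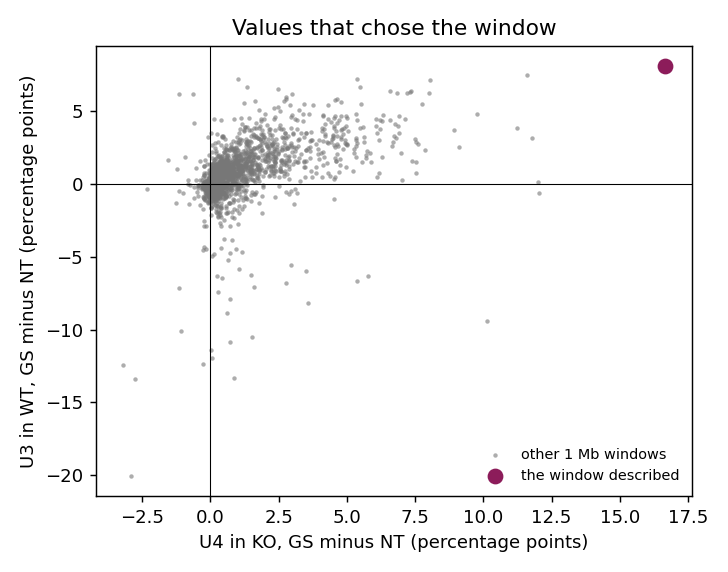
Difference between GS and NT in U4 of SirT7-/- cells (horizontal, percentage points) and in U3 of wild-type cells (vertical, percentage points), 1 point per 1 Mb window of the genome. The window described is the large point at 16.7 and 8.10, chosen as the highest on both axes.

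Windows of like content shared some of these directions and not others. Besides this one, 99 windows had U3 and U4 in at least 40% of bins in WT-NT, 81 on autosomes and 18 on chromosome X. They were alike in the sum of U3 and U4, not in U4. Their median U4 share of U3 and U4 on autosomes was 14.3% in KO-GS, 6.04% in KO-NT, 12.8% in WT-GS and 17.8% in WT-NT. In the window described it was 46.1%, 16.6%, 36.8% and 47.3%, so more of its bins were U4. The part of its larger differences that goes with this was not tested. On autosomes U4 in SirT7-/- cells was higher in GS in 80 of 81, by a median of 4.04 points. U3 in wild-type cells was higher in GS in 79 of 81, by a median of 3.58 points. U4 in wild-type cells was lower in GS in 80 of 81, with a median difference of -2.06 points. U4 in NT was lower in SirT7-/- than in wild-type cells in 81 of 81, by a median difference of -5.36 points, and KO-NT had the lowest U4 share of the 4 segmentations in 80. U3 in SirT7-/- cells had no common direction there: it was higher in GS in 39 of 81 and lower in 42, with a median of -0.14 points, against -13.9 points in the window described. On chromosome X U4 in SirT7-/- cells was higher in GS in 15 of 18, by a median of 2.20 points, and U3 in SirT7-/- cells was lower in GS in 18 of 18. U3 in wild-type cells was lower in GS in 17 of 18, and U4 in NT was higher in SirT7-/- than in wild-type cells in 18 of 18. U4 in wild-type cells was higher in GS in 15 of 18 there and lower in 2, with a median of 0.420 points.

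By content alone the window was also among the richest in U4. It ranked 4th of 2644 windows for U4 in KO-GS, 21st in KO-NT, 2nd in WT-GS and 2nd in WT-NT. For U3 it ranked 154th, 66th, 100th and 164th in the same order. The window thus ranked higher by U4 content than by U3 content. The rule used differences of these shares, so the ranks are not independent of it.

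SIRT7 peaks were absent from the window. Neither the GS list, with 2671 peaks in all and 94 on chromosome 8, nor the NT list, with 90 in all and 3 on chromosome 8, had a peak in it. An absence of GS peaks was common, since 48.1% of the 2644 windows had none, and so had 71 of the 99 windows of like content. For the NT list 97.5% of windows and 98 of the 99 had none. The stretch without a GS peak that holds the window was 9690 kb long, the 10th longest of 2693 such stretches.

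The nearest listed peaks lay far outside. The nearest GS peak before the window was at 119058235 to 119059267, 3941 kb away, with a score of 624 as the authors deposited it. The sequence under it was U3 in KO-GS, U1 in KO-NT, U3 in WT-GS and U3 in WT-NT. The nearest GS peak after the window was at 128749052 to 128751897, 4749 kb away, with a deposited score of 571, in sequence that was U1 in all 4 segmentations. The nearest NT peak was at 68836493 to 68836654, 54163 kb before the window, and chromosome 8 had none after it. A listed peak is one that passed the authors' criteria, and the lists say nothing of weaker SIRT7 signal in the window.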

How the data were processed

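ChIP-seq of H3K27me3, mH2A1 and SIRT7 was done on crosslinked MEFs, in 28 libraries with inputs. Nuclear extracts served for SIRT7 and whole-cell extracts for the others, per the labels' protocols. Named without a role in the submitters' processing notes were deepTools 2.4.2, MACS 1.4.2, SAMtools 0.1.19, Bowtie, Trimmomatic 0.36, FastQC 0.11.3 and the builds hg19 and mm9. The authors deposited 4 segmentations (a state per 200 bp bin) and 2 SIRT7 peak lists with a score per peak, used only to filter and describe peaks. Shares were counted from the bins with pandas 2.3.3 in Python 3.11.15. Blocks bridged U1 gaps under 5 kb, and a peak counted with 1 bp of overlap. Genes and promoters came from RefSeq GRCm38.p6, and no coordinate was moved between builds. Replicates were pooled and the window was chosen on these segmentations, so no test was made and no p-value is given. The window, genes, lists and comparisons were chosen with earlier results of these data known. The scripts were tested on simulated data. Signal tracks were not analysed here.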

Additional observations from a re-analysis of the deposited data

Results flagged for a closer look

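The differences between GS and NT had opposite signs in the 2 genotypes. U4 was 16.7 points higher in GS than in NT in SirT7-/- cells, while in wild-type cells the difference was -3.74 points. U3 differed by -13.9 points in SirT7-/- cells and was 8.10 points higher in GS in wild-type cells. The opposition of the 2 genotypes was not tested, since each group has 1 pooled segmentation, and 2 of these 4 values selected the window. Over the genome the differences had the same signs. There U4 differed by 0.815 points in SirT7-/- cells and -0.382 points in wild-type cells, and U3 by -0.541 and 0.540 points.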

How the results depend on the processing

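The 26 values (shares, differences, changed bins and peak counts) were recomputed with bins merged into 1 kb by majority state, with segments under 1 kb joined to the segment before, with the window widened by 500 kb on both sides, and with peaks of at least the median score of their list. Of 76 recomputed values, 34 stayed within the 95% Wilson-based interval of the original, which covers counting of neighbouring bins only, 41 moved beyond it and 1 turned its sign. KO-NT had the lowest U4 share under each setting, and both peak counts stayed at 0.

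Merging to 1 kb gave 5.50% U4 in KO-NT, 18.9% in WT-GS and 22.5% in WT-NT, 45.8% U3 in KO-NT, U4 differences of 18.7 points (KO-GS minus KO-NT) and -17.0 points (KO-NT minus WT-NT), and 29.7% of bins changed between KO-GS and KO-NT. Joining short segments gave 23.1%, 2.96%, 15.5% and 21.0% U4 in KO-GS, KO-NT, WT-GS and WT-NT, and 47.3% U3 in KO-NT and 37.7% in WT-GS. It gave U3 differences of -18.2 (KO-GS minus KO-NT), 10.1 (WT-GS minus WT-NT), -8.50 (KO-GS minus WT-GS) and 19.7 points (KO-NT minus WT-NT), and U4 differences of 20.2, -5.54, 7.64 and -18.1 points in the same order. Bins changed were then 31.3% between KO-GS and KO-NT, 18.4% between KO-GS and WT-GS and 28.2% between KO-NT and WT-NT. The joining gives every segment under 1 kb, of any state, the state of the segment before it. Among the segments it absorbs are single-bin islands, which made up more of the U4 segments in KO-NT than in the other segmentations.

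The wider window gave 22.9%, 31.7%, 26.7% and 21.2% U3 and 17.7%, 5.95%, 14.2% and 16.7% U4 in KO-GS, KO-NT, WT-GS and WT-NT. U3 differences were -8.78 (KO-GS minus KO-NT), 5.56 (WT-GS minus WT-NT) and 10.6 points (KO-NT minus WT-NT), and U4 differences 11.8 (KO-GS minus KO-NT) and -10.8 points (KO-NT minus WT-NT). Bins changed were 24.6%, 15.5%, 13.5% and 21.3% for KO-GS with KO-NT, WT-GS with WT-NT, KO-GS with WT-GS and KO-NT with WT-NT. For U3 and U4 together, KO-NT minus WT-NT was -0.220 points in the wider window and 1.24 points in the window itself, and the cause was not tested. Leaving out a replicate and a paired analysis were not possible because the deposited segmentations pool both replicates, and depth is unknown.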
